A study of Saccharomyces cerevisiae with 30 samples.

Results

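The 2 arrays of Saccharomyces cerevisiae strain YKH101 were set against the 2 arrays of strain YJS9, which makes 4 of the 30 two-colour arrays of the series. Each of these arrays carried RNA of 1 of the strains in one channel and RNA of the common strain YJS6 in the other. The channel of the tested strain was swapped between the 2 arrays of each strain, and the strains were compared within the same dye orientation. All 4 arrays came from cells grown at 26 °C in medium lacking tryptophan and histidine to an optical density of about 0.8 and then held at 37 °C for 45 min, per the labels' protocols, and YJS6 was treated in the same way. The labels give strain names and no genotypes for YKH101, YJS9 and YJS6. Nothing in the labels tells whether a strain's arrays came from different cultures, and the p-values given here reflect the scatter among arrays, which may be technical.

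The values are log2 ratios to YJS6, each relative to the median gene of its array, and a difference of 1 between the strains is a doubling on the linear scale. The labels do not state the direction of the ratio. It was read as strain over YJS6 by taking the large negative GCN5 values of YKH101, given below, as a lower transcript level in that strain. This is an assumption about the strain that the labels do not supply, and every "higher" and "lower" here depends on it. The 4 arrays had values for 6253 to 6378 of 6400 spots, and their small number limits the precision. Across genes, the opposite dye orientations correlated with r = 0.81 in YKH101 and 0.77 in YJS9. Between the strains, r was 0.70 in the first orientation and 0.82 in the second. The r within a strain spans opposite dye orientations and the r between strains shares 1, so the 2 kinds are not like for like. The array numbers were 47 for YKH101 and 193 for YJS9 in the first orientation, and 177 and 176 in the second. These correlations describe arrays that share YJS6, and genes are not independent replicates.

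TFIID and SAGA, named in the title of the study, are coactivator complexes that help to bring the TATA-binding protein (TBP) to yeast promoters. SAGA contains the histone acetyltransferase Gcn5 and the TBP-contacting subunit Spt3, while TFIID contains Taf1 and other TBP-associated factors. SAGA is best known in yeast for stress-inducible genes, and TFIID for steadily expressed genes such as those of ribosomal proteins. The comparison asks which transcripts separate YKH101 from YJS9 when both are read against the same strain.

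GCN5 was the gene with the largest difference. Its log2 ratio was -5.14 and -5.64 on the YKH101 arrays, against 3.40 and 3.06 on the YJS9 arrays. It lay below YJS6 in YKH101 and above YJS6 in YJS9 in both dye orientations. The difference of log2 ratios was -8.62 ± 0.26 (SE from limma, 2 arrays per strain, adjusted p = 2.08e-09). On the 4 arrays that held YJS6 in both channels, GCN5 stayed between -0.12 and 0.24. The other coactivator genes singled out did not pass the test. SPT3 had 0.24 and 0.61 in YKH101, against -0.20 and 0.16 in YJS9 (difference 0.45 ± 0.42, adjusted p = 0.723). TAF1, which encodes the scaffold of TFIID, had 0.26 and 0.81 in YKH101, against 0.13 and 0.23 in YJS9 (difference 0.36 ± 0.21, adjusted p = 0.482). BDF1, a bromodomain protein that binds TFIID and whose gene lies on chromosome XII, had 2.26 and 1.49 in YKH101, against 2.63 and 2.20 in YJS9 (difference -0.54 ± 0.26, adjusted p = 0.36). BDF1 thus lay above YJS6 on all 4 arrays, and its difference was close to the median of -0.60 over all chromosome XII genes described below.

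Of 5396 genes tested across the genome, 159 (2.95%) differed between the strains at a limma adjusted p under 0.05, of which 41 (0.76%) were higher and 118 (2.19%) lower in YKH101. The smallest called difference was 0.58 in size. All 159 had the same sign in both dye orientations, where 32.9% of all genes were below 0 in both and 36.1% above 0 in both. The test averages these same orientations, so the shared sign adds little to it. The arrays of YKH101 and YJS9 did not overlap in any of the 159, but with 2 arrays per strain this held for 42.2% of all genes tested and 40.4% of those not called, so it adds little to the test. The spread of single genes was wide beside this, with standard deviations of the difference across genes of 0.61 in the first orientation and 0.46 in the second. The number of calls depended strongly on the scaling. With the deposited values, with arrays scaled to a common spread, with quantile normalization, or with the 4 arrays fitted alone, GCN5 was the 1 gene called. Leaving out YJS9 replicate 1 left 6 calls and leaving out YKH101 replicate 1 left 7, all among the 159. Without YKH101 replicate 2 there were 43, of which 27 were among the 159, and without YJS9 replicate 2 there were 162, of which 68 were. The arrays against YJS6 fitted alone gave 135, of which 84 were. The genes described below are therefore given with the value of every array.

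**Figure D1:**
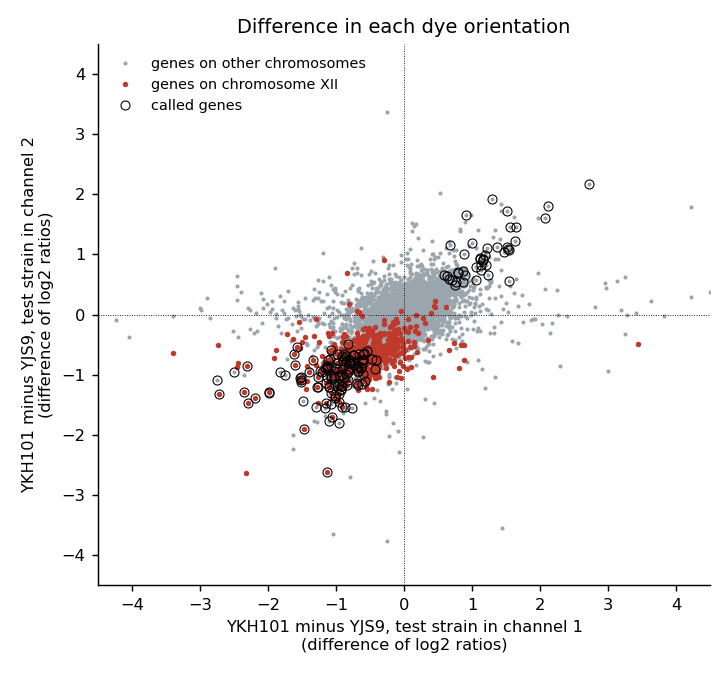
Difference of log2 ratios, YKH101 minus YJS9, for each gene with the test strain in channel 1 (x axis) and in channel 2 (y axis); red points are genes on chromosome XII, grey points genes on other chromosomes, and open circles the 159 called genes. The called genes lie at lower left and upper right, the red points lie mostly at lower left, and 8 genes fall outside the axes, GCN5 among them at -8.54 and -8.70.

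The genes lower in YKH101 were concentrated on chromosome XII. Of the 118, 78 (66.1%) lay there, which is 16.8% of the 463 chromosome XII genes tested, against 40 of 4933 genes (0.811%) elsewhere. None of the 41 higher genes lay on it. The shift covered the chromosome as a whole. The median difference of its genes was -0.60, with -0.54 in the first dye orientation and -0.65 in the second, and the medians of the other 15 chromosomes lay between -0.07 and 0.10. Of the chromosome XII genes, 421 (90.9%) were below 0 in both orientations, against 27.5% of the genes elsewhere. Grouping by chromosome was chosen after the values were seen.

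**Figure D2:**
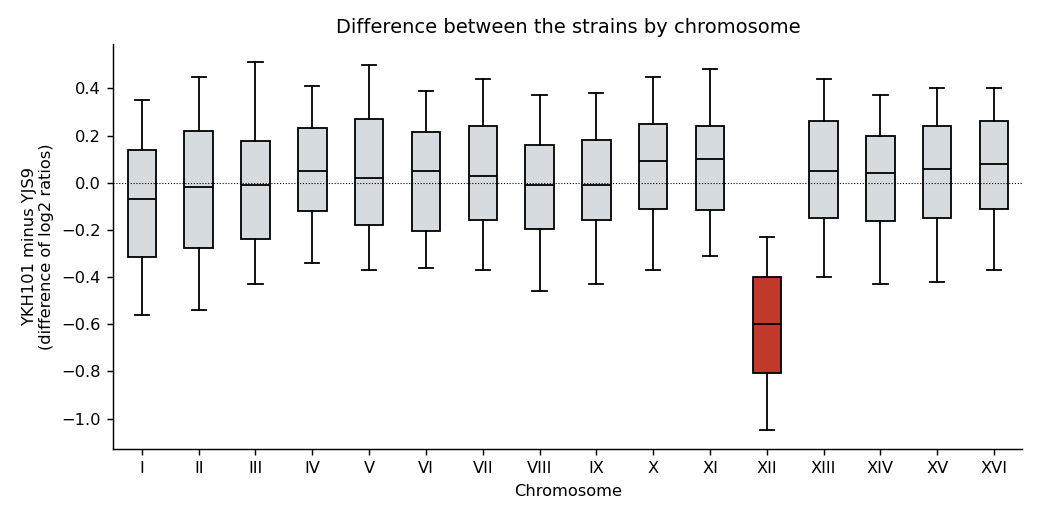
Difference of log2 ratios, YKH101 minus YJS9, over the genes of each chromosome; boxes span the quartiles, the line is the median and whiskers reach the 10% and 90% quantiles. The box of chromosome XII (red) has a median of -0.60 and whiskers at -1.05 and -0.23, below the boxes of all other chromosomes.

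The shift did not belong to one region of chromosome XII. The 58 genes of the left arm had a median difference of -0.61 and the 405 genes of the right arm one of -0.60. Divided in gene order into 10 parts, the chromosome gave medians between -0.73 and -0.55. The share of genes called lower was less even, from 4.35% to 34.8% of a part. Set against YJS6, both strains had chromosome XII genes above the rest of the genome, and YJS9 more so. The median of chromosome XII genes minus that of all other genes was 0.30 and 0.10 on the YKH101 arrays, against 0.90 and 0.81 on the YJS9 arrays. The strains did not overlap in this value, but with 2 arrays against 2 an exact two-sided permutation test cannot go below p = 0.333, which is the value it gave. In YKH101, 134 of the 463 genes (28.9%) were called higher than YJS6, and in YJS9 311 (67.2%). Over all genes those shares were 19.7% in YKH101 and 21.9% in YJS9. Lower than YJS6 were 68 of the chromosome XII genes (14.7%) in YKH101 and 24 (5.18%) in YJS9, where over all genes 20.4% were in YKH101 and 22.3% in YJS9.

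**Figure D3:**
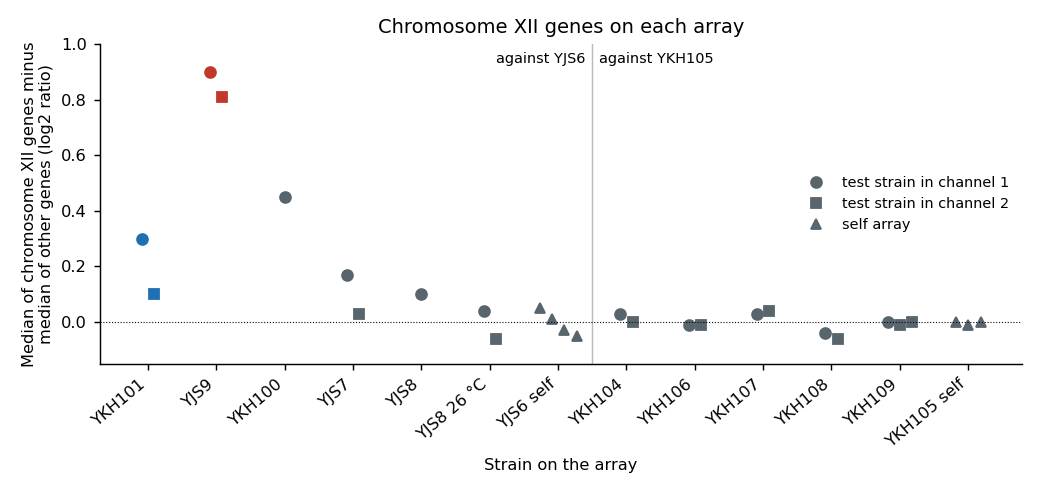
Median log2 ratio of chromosome XII genes minus the median of all other genes on each array, by strain; circles and squares give the channel of the test strain and triangles are arrays with one strain in both channels. The YJS9 arrays lie at 0.90 and 0.81 and the YKH101 arrays at 0.30 and 0.10, and the column that occurs under 2 labels is not drawn.

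On the other 24 arrays this value ran from -0.06 to 0.45, the highest being the 1 usable array of YKH100. These 24 include the arrays of YJS8 kept at 26 °C. The 4 arrays with YJS6 in both channels gave -0.05 to 0.05, and the 14 arrays against the other common strain, YKH105, gave -0.06 to 0.04. The chromosome XII median kept its sign under every alternative that kept those genes but one, with values from -0.77 to -0.40, and was 0.01 when each chromosome was centred on its own median, which removes such a shift by construction. DNA copy number was not measured in the files used here, and its part in the result was not tested. Genes of chromosome XII are marked as such in what follows, since each of them also carries the shift of the chromosome.

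The genes higher in YKH101 included members of the general stress response, the programme that yeast cells switch on under heat, oxidants and starvation. Of 45 stress genes tested, 9 were called higher and none lower, where 0.76% of all genes were called higher. The median difference of the 45 was 0.66, against 0.01 over all genes. A further view without a test gave 33 of the 45 above 0 in both orientations, against 36.1% of all genes. The 9 were SIP18, HSP26, CTT1, ALD3, ALD2, GCY1, GND2, YGP1 and DCS2. Leaving out 1 array of either strain gave 0 to 10 stress genes called, and the list's median stayed between 0.48 and 0.84 under all 17 alternatives.

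SIP18, a hydrophilin that protects cells during desiccation, had 0.59 and 0.56 on the YKH101 arrays, against -2.12 and -1.62 on the YJS9 arrays (difference 2.45 ± 0.41, adjusted p = 0.0134). It lay above YJS6 in YKH101 and below YJS6 in YJS9, and its adjusted p against YJS6 was 0.138 in YKH101. HSP26, a small heat shock protein, had 2.35 and 2.91 in YKH101, against 0.28 and 1.29 in YJS9 (difference 1.84 ± 0.39, adjusted p = 0.032). CTT1, the cytosolic catalase, had 2.26 and 3.16 in YKH101, against 0.75 and 1.43 in YJS9 (difference 1.62 ± 0.30, adjusted p = 0.0166). HSP26 and CTT1 were above YJS6 on all 4 arrays, with no overlap between the strains. ALD3, an aldehyde dehydrogenase, had 2.01 and 2.55 in YKH101, against 0.45 and 1.10 in YJS9 (difference 1.5 ± 0.25, adjusted p = 0.0119). ALD2 gave nearly the same values, and the 2 genes are close copies whose signals the probes may not separate.

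Several metabolic enzymes and membrane proteins were also higher in YKH101, of which GND2 and GCY1 are among the called stress genes listed above. GND2, the minor 6-phosphogluconate dehydrogenase, had 1.90 and 2.34 in YKH101, against 0.67 and 1.24 in YJS9 (difference 1.16 ± 0.21, adjusted p = 0.015). NQM1, a transaldolase, differed by 1.32, GCY1, a glycerol dehydrogenase, by 1.31, and BDH2, a putative butanediol dehydrogenase, by 1.25. HBT1, a protein of mating projections, had 2.07 and 2.43 in YKH101, against 0.42 and 0.98 in YJS9 (difference 1.55 ± 0.28, adjusted p = 0.015). YRO2, a membrane protein related to Hsp30, had 0.34 and 0.63 in YKH101, against -1.2 and -0.45 in YJS9 (difference 1.31 ± 0.24, adjusted p = 0.0182). UIP4, a nuclear envelope protein, had 1.44 on both YKH101 arrays, against 0.08 and 0.32 in YJS9 (difference 1.24 ± 0.26, adjusted p = 0.0281). HBT1 and GND2 were above YJS6 in both strains, and YRO2 only in YKH101. UIP4 was above YJS6 in YKH101 and near it in YJS9, where its fitted log2 ratio was 0.20 (limma adjusted p = 0.395).

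Not all stress genes separated the strains. HSP42, another small heat shock protein, had 1.77 and 1.27 in YKH101, against 1.62 and 1.36 in YJS9. GPD1, which makes the osmolyte glycerol, had -0.11 and 0.26 in YKH101, against -0.15 and 0.38 in YJS9. In both genes the ranges of the strains overlapped. DDR2 had the same difference as HSP26, 1.84, but rested on 1 low array: it had 3.42 and 3.51 in YKH101, against 0.29 and 2.96 in YJS9 (adjusted p = 0.173). HSP42, GPD1 and DDR2 were picked after their values were seen. Of 28 heat shock chaperone genes, 1 was called higher, HSP26, where 0.76% of all genes were. The list's median difference was 0.30, with 0.54 in the first orientation and 0.06 in the second. Of 21 glycogen and trehalose genes none was called, with a median of 0.35. PGM2, the main phosphoglucomutase, had 2.46 and 2.44 in YKH101, against 1.36 and 1.55 in YJS9 (difference 1.0 ± 0.33, adjusted p = 0.145). TSL1, a subunit of trehalose synthase, differed by 0.93 ± 0.35 (adjusted p = 0.218).

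**Figure D4:**
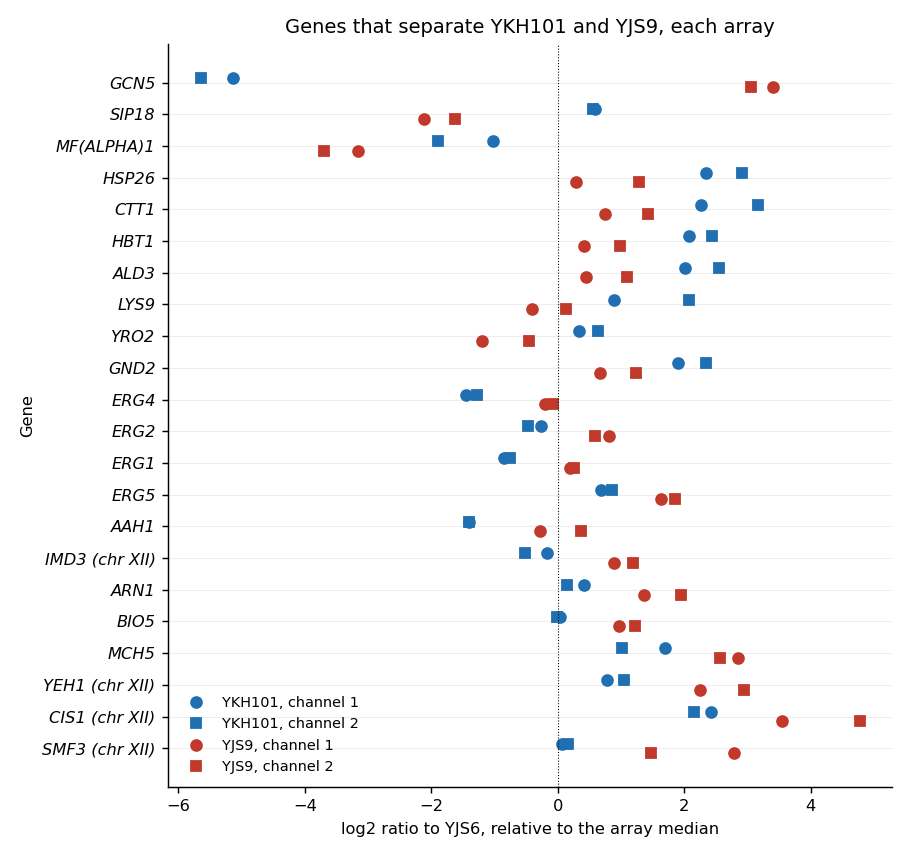
Log2 ratio to YJS6 relative to the array median for 22 genes (rows) on each array of YKH101 (blue, upper marks of a row) and YJS9 (red, lower marks); circles have the test strain in channel 1 and squares in channel 2. Blue and red marks do not overlap in any row, with GCN5 at -5.14 and -5.64 in YKH101 and 3.40 and 3.06 in YJS9.

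Alpha-specific mating genes had a median log2 ratio to YJS6 of -1.34 in YKH101 and -2.72 in YJS9, below YJS6 under the direction assumed here and above it if the ratio ran the other way. These genes encode the alpha pheromone, the receptor for a-factor and an agglutinin of alpha cells. Of the 4 genes listed, 2 were called higher in YKH101, where 0.76% of all genes were, and the list's median difference was 0.97. AFB1, a gene of alpha cells on chromosome XII that this list leaves out, lay the other way at -0.99 and is given below. MF(ALPHA)1, the main alpha pheromone gene, had -1.03 and -1.89 in YKH101, against -3.16 and -3.70 in YJS9 (difference 1.97 ± 0.30, adjusted p = 0.0105). STE3, the receptor for a-factor, had -1.28 and -1.15 in YKH101, against -1.95 and -2.31 in YJS9 (difference 0.92 ± 0.21, adjusted p = 0.0418). In both genes the strains did not overlap. MF(ALPHA)2 had -2.56 and -2.03 in YKH101, against -3.69 and -2.95 in YJS9 (adjusted p = 0.347), and MF(ALPHA)1 and MF(ALPHA)2 are related copies. SAG1, the alpha agglutinin, had -1.0 and -1.14 in YKH101, against -1.71 and -1.28 in YJS9 (adjusted p = 0.762). Fewer cells that express these genes and less RNA per cell cannot be told apart on such arrays.

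Of 7 genes listed as a-specific none was called, and the list's median of -0.05 took either sign under the alternatives. This list also holds AFB1, a gene of alpha cells, and the other 6 had a median of -0.02. BAR1, the protease that degrades alpha pheromone, had 0.35 and 0.88 in YKH101, against 2.74 and 0.50 in YJS9, so that the strains overlapped (adjusted p = 0.467). AFB1, which encodes the a-factor barrier of alpha cells and lies on chromosome XII, had -2.26 and -2.54 in YKH101, against -1.10 and -1.71 in YJS9 (adjusted p = 0.0642). Of 26 pheromone pathway and fusion genes, 1 was called lower, where 2.19% of all genes were. This was SST2 on chromosome XII, the regulator that damps the pheromone signal, with -0.02 and 0.27 in YKH101, against 0.94 and 1.42 in YJS9 (difference -1.05 ± 0.22, adjusted p = 0.0265).

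Of 48 amino acid biosynthesis genes, 2 were called higher, where 0.76% of all genes were, and both act in lysine synthesis. LYS9, saccharopine dehydrogenase, had 0.88 and 2.07 in YKH101, against -0.41 and 0.13 in YJS9 (difference 1.61 ± 0.31, adjusted p = 0.0211). LYS12, homoisocitrate dehydrogenase, had 0.25 and 0.11 in YKH101, against -0.33 and -0.55 in YJS9 (difference 0.62 ± 0.15, adjusted p = 0.049). LYS9 was called under 10 of the 17 alternatives and LYS12 under 1. Over the 48 amino acid biosynthesis genes the median lay the other way, at -0.24, and 28 were below 0 in both orientations, where 32.9% of all genes were. Of 35 nuclear genes of the respiratory chain, 1 was called higher, where 0.76% of all genes were. Above 0 in both orientations were 27 of the 35, where 36.1% of all genes were, and the median was 0.34. The called gene was COX6, a subunit of cytochrome c oxidase, with -0.15 and -0.31 in YKH101, against -0.95 and -1.02 in YJS9 (difference 0.75 ± 0.15, adjusted p = 0.0201). Of 33 proteasome genes none was called, 28 were above 0 in both orientations, against the same 36.1% of all genes, and the median was 0.30. RPT2 and RPT1, ATPases of the regulatory particle, had the largest sizes, 0.66 ± 0.23 (adjusted p = 0.168) and 0.63 ± 0.22 (adjusted p = 0.17).

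Among the ergosterol genes, which make the main sterol of yeast membranes, calls ran one way. Of 24 tested, 8 were called lower and none higher, where 2.19% of all genes were called lower. The median difference was -0.56, and 21 were below 0 in both orientations, where 32.9% of all genes were. Of the 8, ERG1, ERG2, ERG4, ERG5, ERG6 and ERG9 lie on other chromosomes than XII, and ERG3 and ERG27 on XII. Without the chromosome XII members, 6 of 21 were called and the median was -0.54. Leaving out 1 array of either strain gave 0 to 3 called, while the median stayed between -0.73 and -0.41 under all 17 alternatives.

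ERG4, the last enzyme of the pathway, had -1.45 and -1.28 in YKH101, against -0.20 and -0.08 in YJS9 (difference -1.23 ± 0.20, adjusted p = 0.0119). ERG2, the sterol isomerase, had -0.27 and -0.47 in YKH101, against 0.81 and 0.58 in YJS9 (difference -1.06 ± 0.20, adjusted p = 0.0176). ERG1, squalene epoxidase, had -0.85 and -0.76 in YKH101, against 0.19 and 0.26 in YJS9 (difference -1.02 ± 0.15, adjusted p = 0.0097). In these 3 genes the arrays of a strain lay close together and far from the other strain. ERG5, the sterol desaturase, had 0.68 and 0.85 in YKH101, against 1.63 and 1.86 in YJS9, above YJS6 on all 4 arrays. ERG3, on chromosome XII, had 0.75 on both YKH101 arrays, against 1.92 and 1.64 in YJS9 (difference -1.03 ± 0.23, adjusted p = 0.0359). ERG27, also on XII, had -1.22 and -1.65 in YKH101, against -0.31 and -0.11 in YJS9 (difference -1.22 ± 0.29, adjusted p = 0.0477). The isoprenoid precursor genes ERG12 and IDI1 had differences of 0.16 and 0.08, and ERG7 reached -2.21 through 1 array, with -0.28 and -0.98 in YKH101, against 3.76 and -0.60 in YJS9 (adjusted p = 0.191). ERG7, ERG12 and IDI1 were picked after their values were seen.

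The calls among iron genes were also all lower in YKH101. The iron regulon holds the uptake genes that Aft1 switches on when iron is scarce. Of 31 genes listed for iron, 5 were called lower and none higher, where 2.19% of all genes were called lower. The median difference was -0.46, and 25 were below 0 in both orientations, where 32.9% of all genes were. Of the 31, 5 lie on chromosome XII, where 16.8% of genes were called lower and 90.9% were below 0 in both orientations. The other 26 had 3 calls, 20 below 0 in both orientations and a median of -0.37. ARN1, a siderophore transporter, had 0.41 and 0.14 in YKH101, against 1.37 and 1.95 in YJS9 (difference -1.38 ± 0.22, adjusted p = 0.0111). BIO5, a transporter for a biotin precursor, had 0.03 and -0.02 in YKH101, against 0.97 and 1.22 in YJS9 (difference -1.09 ± 0.18, adjusted p = 0.0119). FET4, the low-affinity iron transporter, had -1.75 on both YKH101 arrays, against -0.94 and -0.95 in YJS9 (difference -0.81 ± 0.15, adjusted p = 0.019). FET4 thus lay below YJS6 on all 4 arrays, unlike ARN1.

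The other 2 called iron genes lie on chromosome XII. SMF3, a vacuolar iron transporter, had 0.07 and 0.16 in YKH101, against 2.78 and 1.48 in YJS9 (difference -2.02 ± 0.30, adjusted p = 0.0097). FRE6, a vacuolar metalloreductase, had 0.71 and 0.49 in YKH101, against 2.23 and 1.54 in YJS9 (difference -1.29 ± 0.21, adjusted p = 0.0111). Central uptake genes had sizes as large without passing the test, and were picked after their values were seen. FET3, the multicopper oxidase of high-affinity uptake, had 0.44 and 0.04 in YKH101, against 2.06 and 2.03 in YJS9 (difference -1.81 ± 0.53, adjusted p = 0.103). FIT2, a cell wall mannoprotein that retains siderophores, had 1.29 and 0.96 in YKH101, against 2.92 and 3.19 in YJS9 (difference -1.93 ± 0.48, adjusted p = 0.0527). TIS11 on chromosome XII, which degrades mRNAs of iron-using proteins, had 1.17 and 0.95 in YKH101, against 3.48 and 3.58 in YJS9 (difference -2.47 ± 0.89, adjusted p = 0.185). The arrays of the strains did not overlap in these 3 genes, as in 42.2% of all genes. Leaving out 1 array gave 0 to 4 iron genes called, and the median stayed between -0.62 and -0.28 under all 17 alternatives.

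**Figure D5:**
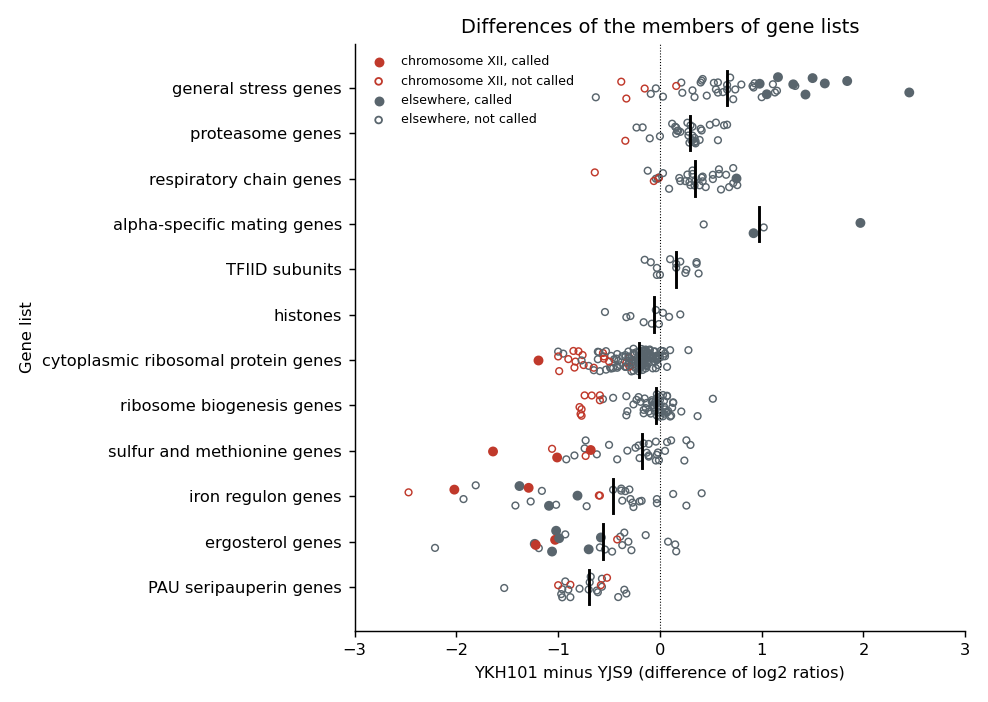
Difference of log2 ratios, YKH101 minus YJS9, for the members of 12 gene lists (rows); filled points were called, open points were not, red points lie on chromosome XII, and the black bar is the list's median. Stress genes have a median of 0.66, while iron, ergosterol and PAU genes have medians of -0.46, -0.56 and -0.70.

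Some of the called genes act in purine or pyrimidine supply. They were picked from the calls after their values were seen, and no list of these pathways was tallied. Other genes of these pathways on chromosome XII were not called, with differences of -0.21 for ADE16, -0.40 for ADE13, -0.51 for PNP1 and -0.50 for CDD1. AAH1, adenine deaminase, had -1.40 and -1.41 in YKH101, against -0.28 and 0.36 in YJS9 (difference -1.44 ± 0.29, adjusted p = 0.023). IMD3 on chromosome XII, an IMP dehydrogenase of guanine nucleotide synthesis, had -0.17 and -0.52 in YKH101, against 0.89 and 1.19 in YJS9 (difference -1.38 ± 0.18, adjusted p = 0.0097). IMD4 on chromosome XIII had -0.89 and -1.62 in YKH101, against -0.12 and -0.05 in YJS9 (difference -1.17 ± 0.18, adjusted p = 0.0105), and IMD3 and IMD4 are close copies whose signals may mix. FUR4, the uracil permease, had -0.87 and -0.44 in YKH101, against 1.63 and 0.52 in YJS9 (difference -1.73 ± 0.31, adjusted p = 0.015). FUI1, the uridine permease, differed by -0.95 ± 0.21 (adjusted p = 0.0341), and FUR1, which salvages uracil, by -0.67 ± 0.16 (adjusted p = 0.0438). URA4 on chromosome XII, dihydroorotase, had -0.46 and -0.10 in YKH101, against 0.95 and 0.85 in YJS9 (difference -1.18 ± 0.21, adjusted p = 0.0201).

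Other genes with a difference of at least 1 in each orientation off chromosome XII included a vitamin transporter and little-studied genes. MCH5, a riboflavin transporter, had 1.69 and 1.02 in YKH101, against 2.85 and 2.57 in YJS9 (difference -1.36 ± 0.19, adjusted p = 0.0097). MCH5 was the 15th and last of the lower genes named by size, and PSY3 on chromosome XII came next at -1.32. YMR085W had -0.44 and 1.11 in YKH101, against 2.30 and 2.19 in YJS9 (difference -1.91 ± 0.40, adjusted p = 0.0341). The values of YMR085W differed between the 2 YKH101 arrays by more than 1, yet stayed below both YJS9 arrays. DFP3, YJL213W and YBL029W differed by -1.65, -1.45 and -1.41, with YJL213W at 0.41 and 0.22 in YKH101, against 1.89 and 1.65 in YJS9. RCN1, a calcineurin regulator chosen after its values were seen, had 0.33 and 0.21 in YKH101, against 1.84 and 1.25 in YJS9 (difference -1.27 ± 0.18, adjusted p = 0.0097).

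On chromosome XII, the genes named by size were called and differed by at least 1 in each orientation. Larger or equal differences without a call were -2.60 for BUD8, -2.47 for TIS11 and -2.02 for RFX1, of which BUD8 (4.98 and 0.54) and RFX1 (4.79 and 1.58) rested mainly on the first YJS9 array. CIS1 was high in both strains, with 2.42 and 2.16 in YKH101, against 3.55 and 4.77 in YJS9 (difference -1.87 ± 0.27, adjusted p = 0.0097). EMA19 was below YJS6 in YKH101, with -2.26 and -1.71, and near it in YJS9, with 0.10 and -0.42 (difference -1.82 ± 0.25, adjusted p = 0.0097). YEH1, a steryl ester hydrolase, had 0.78 and 1.04 in YKH101, against 2.24 and 2.94 in YJS9 (difference -1.68 ± 0.27, adjusted p = 0.0111). CIS1 and YEH1 were thus above YJS6 on all 4 arrays. ICT1, a lysophosphatidic acid acyltransferase, had 0.29 and -0.41 in YKH101, against 2.48 and 0.98 in YJS9 (difference -1.79 ± 0.28, adjusted p = 0.0111). RFU1, an inhibitor of the ubiquitin hydrolase Doa4, had -0.39 and -0.34 in YKH101, against 1.90 and 1.13 in YJS9 (difference -1.88 ± 0.37, adjusted p = 0.023). JLP1, a sulfonate dioxygenase, had 0.18 and 0.45 in YKH101, against 2.16 and 1.74 in YJS9 (difference -1.64 ± 0.32, adjusted p = 0.0211). ICT1, RFU1 and JLP1 were near YJS6 in YKH101 and above it in YJS9.

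Among sulfur genes, all calls lay on chromosome XII. Of 32 sulfur and methionine genes, 3 were called lower, JLP1, SAM1 and MET17. Over all genes 2.19% were called lower, and 16.8% of those on chromosome XII. SAM1, S-adenosylmethionine synthetase, had 0.35 and 0.62 in YKH101, against 1.49 on both YJS9 arrays (difference -1.01 ± 0.15, adjusted p = 0.0097). MET17, which makes homocysteine, differed by -0.68 ± 0.15 (adjusted p = 0.0397). The 5 sulfur genes on chromosome XII had a median difference of -1.01 and the other 27 one of -0.11. Of 31 nitrogen catabolite repressed genes, 2 were called lower, where 2.19% of all genes were. These were CAR2 on chromosome XII and PUT2 on VIII. CAR2, ornithine transaminase, had 2.16 and 2.34 in YKH101, against 3.45 and 3.54 in YJS9 (difference -1.24 ± 0.24, adjusted p = 0.0242). PUT2, a proline degradation enzyme, had 1.25 and 1.34 in YKH101, against 2.03 and 2.14 in YJS9 (difference -0.79 ± 0.17, adjusted p = 0.0305). Both lay above YJS6 on all 4 arrays, without overlap.

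Other nitrogen genes lay the other way without passing the test, and were picked after their values were seen. DUR3, the urea transporter, had 2.66 and 3.0 in YKH101, against 1.24 and 1.28 in YJS9 (difference 1.57 ± 0.54, adjusted p = 0.168). DAL80, a repressor of nitrogen genes, had 3.22 and 4.20 in YKH101, against -1.0 and 2.41 in YJS9 (difference 3.01 ± 0.81, adjusted p = 0.0802). The list's median was 0.07 and took either sign under the alternatives. Of 14 serine and glycine genes 1 was called lower, where 2.19% of all genes were. This was CHA1, serine deaminase, with 2.65 and 2.66 in YKH101, against 3.52 and 4.20 in YJS9 (difference -1.21 ± 0.25, adjusted p = 0.032).

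Most ribosomal protein genes were below YJS6. Of 133 tested, 130 had a fitted log2 ratio below 0 in YKH101 (114 called lower, 0 higher), and 119 in YJS9 (88 called lower, 3 higher). Over all genes, 20.4% were called lower and 19.7% higher in YKH101, and 22.3% and 21.9% in YJS9. Arrays were centred on their medians, so genes at large lie on both sides of 0. Between the strains, 1 of the 133 was called lower, where 2.19% of all genes were. This was RPL22A on chromosome XII, with -0.44 and -0.35 in YKH101, against 0.58 and 1.03 in YJS9 (difference -1.2 ± 0.21, adjusted p = 0.0146). RPL22A has a close copy in RPL22B, as most genes of this list have a paralog. The list had a median log2 ratio of -1.02 in YKH101, against -0.81 in YJS9. Its median difference was -0.21, with -0.05 in the first orientation and -0.40 in the second. The 18 members on chromosome XII had a median difference of -0.75, and the 115 elsewhere one of -0.19. Of 68 ribosome biogenesis genes none was called, and the same split gave -0.75 for the 8 on chromosome XII and -0.03 for the other 60. DRS1, a helicase of large subunit assembly on chromosome XII, had 0.16 and -0.64 in YKH101, against 0.86 and 0.24 in YJS9 (adjusted p = 0.0786). Of 72 mitochondrial ribosomal protein genes none was called, with a median of 0.15 that turned to -0.02 under 1 scaling.

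PAU genes, a subtelomeric family of near-identical cell wall genes, gave no call, yet all 22 were below 0 in both orientations, where 32.9% of all genes were. Their median difference was -0.70, and it was -0.70 also for the 18 outside chromosome XII. PAU8 had -1.14 and -0.91 in YKH101, against 0.14 and 0.86 in YJS9 (difference -1.53 ± 0.53, adjusted p = 0.177). PAU17, on chromosome XII, had 0.41 and 0.36 in YKH101, against 1.29 and 1.47 in YJS9 (difference -1.0 ± 0.28, adjusted p = 0.0873). On the 4 arrays with YJS6 in both channels, PAU8 ran from -2.81 to 1.27 and PAU17 from -0.61 to 0.54. The probes of such copies may read one another's RNA, so the 22 are not independent measurements.

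The coactivator lists other than GCN5 held no call. Of 13 SAGA subunits GCN5 alone was called, and the list's median was 0.06. Of 14 TFIID subunits none was called, with a median of 0.16, and TAF14 and TAF13 had the largest sizes at 0.38 and 0.36. Of 16 genes for TBP and its regulators none was called, with a median of -0.08, and of 10 histone genes none, with a median of -0.06. HTB2, a histone H2B gene, had -0.85 and -1.08 in YKH101, against 0.18 and -1.02 in YJS9 (adjusted p = 0.535), and the 2 H2B genes are close copies. The medians of these 4 lists took either sign under the alternatives, or reached 0.

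The remaining lists gave few calls, where 0.76% of all genes were called higher and 2.19% lower. Of 33 G1 cyclin and S phase genes 1 was called lower, SWI6 on chromosome XII, a subunit of the G1 transcription factors, with -0.35 and 0.54 in YKH101, against 0.72 and 1.13 in YJS9 (difference -0.83 ± 0.19, adjusted p = 0.0433). Of 17 G2/M and M/G1 genes 2 were called lower. SIC1 on chromosome XII, the inhibitor of S phase kinase, differed by -0.58 ± 0.14 (adjusted p = 0.0464), and PCL9, a cyclin of early G1, by -0.92 ± 0.19 (adjusted p = 0.0305). Of 32 cell wall mannoprotein genes 1 was called, YGP1, a glycoprotein of starved cells, with 1.29 and 0.38 in YKH101, against -0.25 and -0.18 in YJS9 (difference 1.05 ± 0.22, adjusted p = 0.0281). Of 10 genes used as selection markers MET17 was the 1 called. No gene was called among 24 hexose transporter and glucose sensor genes, 25 of glycolysis and fermentation, 25 of the TCA and glyoxylate cycles, 26 of the phosphate response, 25 of fatty acids and phospholipids and 29 RNA polymerase subunits. The medians of those 6 lists lay between -0.07 and 0.31. The highest, of glycolysis and fermentation, was 0.56 in the first orientation and -0.06 in the second.

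Strains YKH100 and YJS7, also set against YJS6, gave another comparison, with 1 array of YKH100 and 2 of YJS7. It comes from the same fit, so its dye term and its spread also draw on the arrays of YKH101 and YJS9. With YKH100 in a single orientation, its value also depends on that dye term. Of 5394 genes, 7 (0.13%) differed in YKH100 minus YJS7, and GCN5 was again the largest at -7.47 ± 0.32 (adjusted p = 1.52e-07). The other 6 were RPS14A, IDP1, UBX4, ADD37, ZEO1 and POS5. ADD37 was not tested in YKH101 minus YJS9, and the other 5 were not called there. Chromosome XII genes had a median difference of 0.32 there, of opposite sign to the -0.60 in YKH101 minus YJS9, and genes elsewhere -0.01. Of the 81 named genes tested there, GCN5 was the 1 called, and the lowest adjusted p of the others was 0.126. The difference between the 2 comparisons was not tested.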

How the data were processed

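The authors deposited a log2 ratio for every spot of an array, and the sources used here do not give how it was normalized. Spots were named through the platform annotation and a RefSeq gene table (assembly R64, used for names and chromosomes): 5578 of 6400 spots carried 1 gene and 5573 matched. Spots of a gene were averaged. Opposite dye orientations of a strain correlated positively, so the values were read as already turned. Each array was centred on its median. Replicate 2 of YKH100 and of YJS8 held identical values, and both columns were left out.

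A model was fitted on 21 arrays with limma 3.58.1 in R 4.3.3 (lmFit, eBayes). It held a term per strain and temperature and a gene-wise dye term. It left 9 residual degrees of freedom and a median SE of the difference of 0.242. Simulated data were drawn from the fit's own design and spread with independent normal noise. They test the computation and not whether the arrays meet these assumptions. The 21 arrays include those of YJS8 kept at 26 °C and those of test strains against YKH105. Their scatter enters every SE and p-value of the fit. A gene needed values on all 4 arrays and on at least 18 of the fit, and was called at a Benjamini-Hochberg adjusted p under 0.05 over all genes tested. All strains shared 1 estimate of spread per gene.

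Genes named were the 15 largest called differences in each direction with a size of at least 1 in each orientation (14 qualified as higher), GCN5, SPT3, BDF1 and TAF1, and of each of 32 gene lists the 4 largest called members, or the 2 largest where none was called; others are marked in the text as chosen after seeing values. The strains compared, the lists and the rules were chosen with earlier results of these data known. Alternatives changed the centring, scaling, dye term, arrays, filter and variance prior, left out arrays or an orientation, or, chosen after seeing the data, left out or separately centred chromosome XII. No paired analysis was possible because the replicate number stands for the dye orientation (the strain in channel 1 or in channel 2), which the dye term already holds. A planned search of promoters for motifs was not run, and no sequences were used here.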

Additional observations from a re-analysis of the deposited data

Results flagged for a closer look

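In 14 of the 159 called genes, out of 5396 tested, the 2 strains stood on opposite sides of YJS6, each called against YJS6 by limma. Some of these strain calls lay near the threshold, with limma adjusted p = 0.0486 for RPL22A and 0.0478 for ORC5 in YKH101, and 0.0485 for SDO1 in YJS9. Those on chromosome XII also carry the shift of that chromosome, whose genes had a median of 0.80 in YJS9. YRO2 was the 1 such gene above YJS6 in YKH101 and below it in YJS9, with a difference of 1.31. The other 13 were below YJS6 in YKH101 and above it in YJS9. GCN5 differed by -8.62. Off chromosome XII, FUR4 (uracil permease) differed by -1.73, YHK8 (a putative transporter) by -1.28, CPP2 by -1.15 and ORC5 (a subunit of the origin recognition complex) by -0.88. On chromosome XII, IMD3 differed by -1.38, STT4 (a phosphatidylinositol kinase) by -1.22, RPL22A by -1.2, DPS1 (aspartyl-tRNA synthetase) by -1.15, NSE1 (a subunit of the Smc5/6 complex) by -1.14, SEN2 (a tRNA splicing endonuclease subunit) and SND2 (membrane protein targeting) by -0.79 each, and SDO1 (ribosome maturation) by -0.76.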

How the results depend on the processing

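GCN5 was called under all 17 alternatives, with differences from -8.89 to -6.54; no other gene was called under more than 10. Against 159 calls (41 higher, 118 lower, 78 of the lower on chromosome XII and 40 elsewhere), the deposited values, arrays scaled to 1 spread, quantile normalization and the 4 arrays alone each gave 1 call, with 0 higher, 1 lower, 0 on chromosome XII and 1 elsewhere; at an unadjusted p under 0.05 these limma fits held 178, 327, 299 and 1191 genes. The deposited scale moved the median of all genes to -0.16. No dye term gave 80 (17 higher, 63 lower, 42 on XII, 21 elsewhere), and keeping the repeated columns 79 (10, 69, 44 and 25 in the same order), of which 87.3% were lower, against 74.2%. The first orientation alone gave 95 (60 lower, 21 on XII; 63.2% lower) and the second alone 6 (1 higher, 5 lower, 2 on XII, 3 elsewhere). Leaving out each replicate gave 6 to 162 calls, 0 to 51 higher, 6 to 111 lower, 3 to 50 on XII and 3 to 61 elsewhere; the lone array of a strain was then taken to vary as other strains did. Leaving out chromosome XII genes gave 43 (15 higher, 28 lower; 65.1% lower). Centring each chromosome on its own median gave 53 (22 higher, 31 lower, 0 on XII; 58.5% lower). The chromosome XII median of -0.60 became -0.77 on the deposited scale, -0.42 with arrays scaled to 1 spread, -0.40 after quantile normalization, -0.70 to -0.50 without 1 replicate, and 0.01 with chromosomes centred separately, where SIC1 (0.04) and YLL054C (0.01) also changed sign by construction. Arrays against YJS6 alone, no minimum on values and a robust prior gave 135, 152 and 159 calls. For the other settings the cause was not tested.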
